A study of Homo sapiens with 4 samples.

Results

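The elements described here are the oligonucleotides of 6 single-base variants on chromosome 4, rs2972021 (position 89584424), rs2924941 (89644197), rs6814344 (89733882), rs7674369 (89872176), rs10030965 (89901415) and rs10516826 (89918968). They were chosen by the measured ratio of reporter RNA to plasmid input: each variant had at least 1 element among the 10 with the highest such ratio with at least 1 of the promoters, so the high ratios are the reason for the choice and are given without a test. Elements of other variants also stood among these 10, including places 1 to 4 with SV40, and those variants are outside this selection. With 3 windows (named L, C and R), 2 orientations (F and RC) and 2 alleles per variant, they comprised 72 of the 7270 oligonucleotides and 2182 of the 218526 tags of the table. The positions are those of the deposited table, for which the sources used here name no genome build and no meaning of the window letters, and exon or intron positions were not analysed here.

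The study tested variants of FAM13A, a locus associated with chronic obstructive pulmonary disease, in BEAS-2B, an established human bronchial epithelial line. Oligonucleotides made on an array were cloned into a pGL4.10M2 reporter plasmid with either a weak minimal promoter (minP) or the strong simian virus 40 promoter (SV40), and each plasmid pool was sequenced before transfection as input. Reporter mRNA was collected 24 hours after nucleofection of each pool, giving 4 libraries, input and RNA for each promoter, with 1 library per group and no replicate. All errors below are therefore standard errors over tags of 1 transfection, they say nothing about the spread between transfections, and no p-value is given.

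In such an assay every candidate element is linked to many short barcodes, here tags of 11 bases, that are transcribed as part of the reporter. An enhancer raises the RNA made per plasmid copy, and the plasmid count is the denominator that corrects for how often each molecule occurs in the pool before transfection. A high ratio can thus come from many RNA reads, from few plasmid reads, or from both, and an enhancer in the classical sense acts in either orientation.

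The tags of the leading window of each variant, the one with the highest mean activity over both alleles and promoters, are shown because their counts are the readout of the assay. For each variant the tag with the most RNA reads, over both promoters, among tags with at least 10 input reads in both pools is printed in capitals over its whole length, followed by the tags with the fewest RNA reads for rs2924941 and rs6814344.
rs7674369, window R, RC, G allele: AGGCGTTGGTA
rs10030965, window R, RC, C allele: CGCGCTGGTTA
rs10516826, window L, F, T allele: CAAGTGTCCTA
rs2924941, window L, F, T allele: TTCTCGTACTA
rs2972021, window L, RC, T allele: AGTTTGCTAGT
rs6814344, window C, RC, A allele: GTAGACGATGT
rs2924941, window L, F, C allele, fewest RNA: AGTCTTCTTGC
rs6814344, window C, RC, A allele, fewest RNA: TACAACGCGAG
The tag AGGCGTTGGTA of rs7674369 had 22 input and 230 RNA reads in the minP libraries, and 16 input and 487 RNA reads in those of SV40. The tag AGTTTGCTAGT of rs2972021 had 21 and 202 reads in the former and 18 and 703 in the latter. At the other end, AGTCTTCTTGC of rs2924941 had 64 input reads and 5 RNA reads in the minP libraries and 72 and 4 in those of SV40, and TACAACGCGAG of rs6814344 had 16 and 2 and then 15 and 5. For the last, GTAGACGATGT of the same oligonucleotide had 24 input and 286 RNA reads in the minP libraries and 29 and 549 in those of SV40, so tags of 1 oligonucleotide could differ widely at similar input. The tags with the fewest RNA reads in the other leading windows had more, from 8 to 32 with minP and from 22 to 132 with SV40. The bases of the passing tags of the leading windows were 50.3% G or C with minP and 50.1% with SV40, beside 49.8% over all passing tags in each library.

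The libraries held 29398765 reads for minP input, 11086933 for minP RNA, 26557676 for SV40 input and 24504694 for SV40 RNA. A tag passed with at least 10 input reads, and an element, that is 1 allele in 1 window and orientation, was used with at least 10 passing tags. This left 67 of the 72 elements with minP and 68 with SV40. Of the member tags 82.8% passed with minP and 81.3% with SV40, beside 89.5% and 88.2% of all tags. Activity is the mean over tags of the log2 ratio of RNA to input, each as a share of its library, minus the mean of that ratio over all passing tags. It is the exact sum of an RNA part (how far the log2 RNA share lies above the average tag) and an input part (how far the log2 input share lies below it).

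In the 6 leading windows, input was scarce and RNA was high at the same time. Over their 12 elements, activity ranged from 2.75 to 4.28 with minP and from 3.16 to 4.26 with SV40 on the log2 scale. The RNA part ranged from 1.001 to 2.44 with minP, with a median of 1.98, and the input part from 1.38 to 2.21, with a median of 1.80. With SV40 the medians were 2.02 for the RNA part and 1.55 for the input part. The RNA part was the larger of the parts in 6 of the 12 elements with minP and in 9 of the 12 with SV40, so on this scale neither side led throughout.

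Which side weighs more depended on how the tags were averaged. In plain reads per tag, the passing tags of the leading windows averaged 31.7 input reads with minP against 150.0 over all passing tags, 4.73-fold fewer, and 99.8 RNA reads against 55.6, 1.80-fold more. The SV40 libraries gave 32.4 against 137.3 input reads, 4.23-fold fewer, and 218.8 against 123.9 RNA reads, 1.77-fold more. On plain means the shortfall of input exceeded the excess of RNA in all 12 elements with each promoter. By the medians of the tags, RNA was 87 against 29 reads with minP and 207 against 64 with SV40, and input 26 against 99 and 27 against 92. Tags at 0 RNA reads made up 13.6% of all passing tags with minP and 8.38% with SV40, but only 1 of the 225 and 2 of the 200 tags of the leading windows, and such tags weigh more on an average of log2 values than on a plain average.

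Tags below the input minimum, which did not enter the ratios, also carried RNA. In the leading windows, 136 of 361 tags with minP and 161 with SV40 had under 10 input reads, on average 3.22 and 2.98 reads. They averaged 52.2 RNA reads with minP and 153.5 with SV40, with medians of 41.5 and 116. All tags of the libraries under the minimum averaged 9.86 and 24.1 RNA reads, with medians of 0 and 1. RNA reads were present for 91.2% and 95.7% of these tags in the leading windows, beside 39.6% and 51.1% of all tags below the minimum. These tags belong to the same plasmid pools and transfections as the passing ones and are no replicate of them.

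For rs7674369, window R in orientation RC was the leading window. With minP its A allele averaged 23.8 ± 2.1 input and 80.7 ± 9.8 RNA reads per tag (SE, 19 tags), and its G allele 22.5 ± 2.3 and 115.3 ± 16.4 (20 tags). With SV40 the A allele averaged 37.4 ± 6.9 input and 229.5 ± 26.7 RNA reads (17 tags), and the G allele 41.8 ± 5.3 and 304.8 ± 37.6 (11 tags). Both alleles had few input and many RNA reads with both promoters, and activity was 3.76 ± 0.23 (A) and 4.28 ± 0.24 (G) with minP and 3.77 ± 0.30 and 3.98 ± 0.34 with SV40. The same window in orientation F averaged 292.5 and 240.1 input reads per tag with minP, and 28.0 and 27.9 RNA reads. Its activity was -1.39 ± 0.20 and -1.15 ± 0.22, below the average tag. Between the orientations, as the mean of the alleles on the log2 scale, RC had 10.8-fold less input and 3.62-fold more RNA with minP, and 4.90-fold less input and 7.48-fold more RNA with SV40.

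The other windows of rs7674369 separated the parts. In windows C and L of orientation F, RNA with minP averaged 88.7 to 117.5 reads per tag, a level that overlapped that of the leading window, but input averaged 782.2 to 970.2 reads and activity was -1.39 to -0.77. With SV40 these windows averaged 148.1 to 223.4 RNA reads, below the 229.5 and 304.8 of the leading window. Conversely, window C in orientation RC had as little input as the leading window (21.8 reads per tag for A and 24.3 for G with minP), but 20.3 and 38.8 RNA reads, and its activity was 1.07 ± 0.53 and 1.90 ± 0.64. In window L of orientation RC only 5 of 22 tags (A) and 3 of 27 (G) passed with minP, too few for an activity by the rule used.

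For rs10030965 the leading window was again R in orientation RC. With minP, A averaged 30.6 ± 4.9 input and 117.7 ± 15.7 RNA reads per tag (18 tags) and C 35.2 ± 6.0 and 119.8 ± 16.0 (15 tags). With SV40, A averaged 22.6 ± 4.5 and 202.5 ± 26.6 (13 tags), and C 22.5 ± 2.1 and 203.1 ± 37.4 (17 tags). Activity was 3.89 ± 0.41 and 3.96 ± 0.25 with minP, and 4.26 ± 0.24 and 3.23 ± 0.62 with SV40. High RNA was also measured in other windows of this variant. Window L in orientation F averaged 153.0 (A) and 149.6 (C) RNA reads per tag with minP, above both alleles of the leading window, with 370.7 and 372.2 input reads and activities of 0.69 ± 0.19 and 0.55 ± 0.17. Against window L in orientation RC, the leading window had 1.52-fold more RNA and 10.5-fold less input with minP on the log2 average, and 0.99 times the RNA and 13.1-fold less input with SV40. Against the same window in orientation F, the leading window had 11.3-fold less input and 2.83-fold more RNA with minP, and 8.58-fold less input and 2.13-fold more RNA with SV40.

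For rs10516826 the leading window was L in orientation F, and over passing tags its gap to window R of the same orientation was mostly in RNA. With minP, C averaged 28.0 ± 3.7 input and 105.1 ± 14.2 RNA reads per tag (18 tags), and T 23.1 ± 4.2 and 79.8 ± 17.7 (12 tags). With SV40, C averaged 33.6 ± 5.1 and 202.1 ± 28.2 (16 tags), and T 22.4 ± 3.0 and 195.0 ± 45.5 (14 tags). Activity was 3.99 ± 0.22 and 3.67 ± 0.33 with minP and 3.69 ± 0.31 and 3.54 ± 0.60 with SV40. Window R of the same orientation also had scarce input (41.9 and 31.1 reads per passing tag with minP) but 9.81 and 10.5 RNA reads, with activities of -0.92 ± 0.40 and -0.22 ± 0.52. On the log2 average the leading window had 1.42-fold less input and 14.9-fold more RNA than window R with minP, and 1.07-fold less input and 20.6-fold more RNA with SV40. The input minimum removed more tags from window L than from window R, where 26 of 30 (C) and 18 of 31 (T) passed with minP. In window L 18 of 31 and 12 of 32 passed. Over all listed tags with minP, input averaged 17.3 (C) and 10.5 (T) reads in window L and 37.1 and 20.0 in window R. With SV40 these were 18.6 and 11.2 against 28.3 and 15.4. Window C of orientation F kept only 4 of 26 (C) and 2 of 25 (T) tags with minP and was not used.

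In orientation RC, rs10516826 held some of the lowest activities among the members. Window L in that orientation stood at -2.10 ± 0.25 (C) and -1.54 ± 0.23 (T) with minP and at -2.30 ± 0.18 and -2.95 ± 0.16 with SV40, with 263.9 and 129.4 input reads and 18.8 and 10.8 RNA reads per tag with minP. The gap of 5.65 between the orientations of window L with minP was split almost evenly, with 2.82 from RNA and 2.83 from input. With SV40 the gap was 6.24, of which 2.91 came from RNA and 3.33 from input.

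For rs2924941 the leading window was L in orientation F, and RNA made up most of its gap to orientation RC. With minP, C averaged 39.2 ± 7.7 input and 120.0 ± 16.8 RNA reads per tag (21 tags), and T 40.6 ± 5.9 and 138.5 ± 17.9 (21 tags). With SV40, C averaged 44.6 ± 12.7 and 246.9 ± 38.5 (17 tags), and T 34.1 ± 4.7 and 275.2 ± 39.5 (17 tags). Activity was 3.69 ± 0.38 and 3.92 ± 0.23 with minP and 3.32 ± 0.58 and 3.78 ± 0.39 with SV40. The same window in orientation RC averaged 83.2 and 117.0 input reads with minP and 12.7 and 14.2 RNA reads, so that input differed 2.71-fold and RNA 14.3-fold on the log2 average. With SV40 these were 1.98-fold and 17.6-fold. RNA accounted for 72.8% and 80.7% of the gap on the log2 scale, the largest shares among the 6 leading windows.

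Window C of rs2924941 in orientation F was also high, at 2.86 ± 0.34 (C) and 2.98 ± 0.44 (T) with minP and at 3.27 ± 0.32 and 3.69 ± 0.26 with SV40. Window R of that orientation had 74.4 and 106.0 RNA reads per tag with minP but 431.8 and 504.9 input reads, and stood at -0.72 ± 0.18 and -0.24 ± 0.15. In orientation RC, window R had high RNA with input near the average tag. It averaged 112.1 and 110.9 input reads per tag with minP, an input part of -0.01 and -0.04, and 90.6 and 109.8 RNA reads, with activities of 1.60 ± 0.28 and 1.89 ± 0.24. With SV40 its activities were 1.65 ± 0.33 (C) and 2.16 ± 0.25 (T), and its T allele was past 4-fold on RNA alone, with an input part of -0.02.

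For rs2972021 the leading window was L in orientation RC, and its contrast with orientation F was mostly in input. With minP, G averaged 42.8 ± 5.8 input and 91.7 ± 10.5 RNA reads per tag (23 tags), and T 32.5 ± 3.4 and 79.5 ± 11.2 (22 tags). With SV40, G averaged 36.2 ± 4.3 and 232.6 ± 25.8 (22 tags), and T 35.0 ± 3.7 and 206.2 ± 33.6 (22 tags). Activity was 3.30 ± 0.20 and 3.28 ± 0.22 with minP and 3.79 ± 0.21 and 3.41 ± 0.31 with SV40. The same window in orientation F had 77.3 and 92.0 RNA reads per tag with minP, close to the RNA of the leading window, and 544.6 and 561.8 input reads. Input thus differed 13.0-fold and RNA 1.28-fold with minP, and 9.89-fold and 1.59-fold with SV40. Over passing tags, window R of orientation RC had 1.45-fold more input than the leading window with minP but 5.78-fold less RNA. The activities of window R were 0.40 ± 0.44 and 0.05 ± 0.41. The other 5 constructs of rs2972021 (a construct is both alleles of 1 window and orientation), averaged over alleles and promoters, had mean activities between -0.56 and 0.024.

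For rs6814344 the leading window by the mean of both promoters was C in orientation RC. The oligonucleotides of its windows C and R, 8 in all, have names ending in mod, an ending that the labels do not explain. With minP, A averaged 26.2 ± 2.5 input and 79.9 ± 14.6 RNA reads per tag (22 tags), and G 30.5 ± 3.8 and 56.9 ± 10.7 (14 tags). With SV40, A averaged 25.4 ± 2.6 and 184.3 ± 30.7 (22 tags), and G 33.4 ± 5.4 and 156.3 ± 28.2 (12 tags). Activity was 3.34 ± 0.29 and 2.75 ± 0.42 with minP and 3.50 ± 0.33 and 3.16 ± 0.47 with SV40. The G allele with minP had the smallest RNA excess of the leading elements, 1.02 times the plain mean of all passing tags. Orientation F of this window had 50.6 and 67.0 RNA reads per tag and 536.4 and 596.3 input reads with minP. RNA accounted for 1.46% of the gap between the orientations with minP and 21.3% with SV40, the rest being input.

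All windows of rs6814344 in orientation RC lay above the average tag, and all in orientation F below it. The A allele in window L, RC, which placed the variant among the 10 highest elements with SV40 (3.91 ± 0.34, 13 tags), had 8 passing tags of 28 with minP and was not used there. Its G allele stood at 2.82 ± 0.56 with minP (11 tags) and 1.81 ± 0.78 with SV40 (13 tags). Window R in orientation RC stood at 1.91 ± 0.35 (A) and 1.08 ± 0.40 (G) with minP and 2.40 ± 0.50 and 2.31 ± 0.36 with SV40. In orientation F window L stood at -2.01 ± 0.27 (A) and -2.44 ± 0.24 (G) with minP, with 4.86 and 4.50 RNA reads per tag.

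Over all members, the high ratios lay in few windows. With minP 15 of the 67 elements were at least 4-fold above the average tag, beside 1.43% of all 7006 elements, and with SV40 18 of 68, beside 2.13% of 6962; the choice of the members sets these counts, and nothing is read from the comparison. The 15 elements with minP were the 12 of the leading windows, both alleles of rs2924941 in window C, orientation F, and the G allele of rs6814344 in window L, orientation RC. Of these, 14 were also past 4-fold with SV40, which is 93.3% of the minP list and 77.8% of the SV40 list. The leading windows were picked on the mean over both promoters, which favours this overlap. The overlap over all elements was not analysed here, so nothing is read from these shares. The remaining 4 of the SV40 list were the T allele of rs2924941 in window R, RC, and 3 elements of rs6814344 in orientation RC. Among the latter, the A allele in window L had 8 passing tags with minP and was not used there. It could therefore not stand in both lists. Activity lay below the average tag in 34 elements with minP and in 37 with SV40, and its median over the members was -0.056 and -0.15, beside 0.10 and 0.095 over all elements.

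A 2-fold excess of RNA and a 2-fold shortage of input, each on the log2 average, were counted over the members. Both are parts of the ratio that chose the members, so the choice bears on their shares. Nothing is read from the comparison with all elements. With minP 33 of the 67 members had the RNA excess, 49.3% beside 26.7% of all elements, and 20 had the input shortage, 29.9% beside 24.6%. Both were found in 14 members, that is in 14 of the 20 with the input shortage, and in 33 of all 7006 elements. With SV40 33 of 68 had the RNA excess, 48.5% beside 29.6% of all elements, and 23 the input shortage, 33.8% beside 24.1%. Both were found in 15 members, beside 54 of all 6962 elements. Having both makes an element at least 4-fold by arithmetic. Every one of the 15 member elements past 4-fold with minP had the input shortage, and 14 had the RNA excess. With SV40 it was 17 and 16 of 18. Among all 100 elements past 4-fold with minP, 81 had the input shortage and 52 the RNA excess. With SV40 these were 105 and 97 of all 148. Among the members the count with the RNA excess depended on the averaging. Without tags at 0 RNA reads it was 8 of 16 with minP and 14 of 18 with SV40, and with summed counts 5 of 16 and 2 of 18. With summed counts over all listed tags it was 1 of 22 and 1 of 23. Some members reached 4-fold with only 1 of these properties. The G allele of rs6814344 in window L, RC, had an RNA part of 0.77 and an input part of 2.05 with minP, and its activity of 2.82 was close to the 2.75 of that allele in the leading window C. With SV40 they were both alleles of rs6814344 in window R, RC, with RNA parts of 0.97 and 0.98, and the T allele of rs2924941 in window R, RC.

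The members under 4-fold that had 1 of these properties are given next, a group whose lower activity follows from how it was picked. With minP 19 elements had the RNA excess without reaching 4-fold, with 64.5 to 153.0 RNA reads per tag, a range that overlapped the 56.9 to 138.5 of the leading windows, and 110.9 to 970.2 input reads against 22.5 to 42.8. Their activity ran from -1.39 to 1.89. Another 5 had the input shortage without reaching 4-fold, with 21.8 to 51.3 input and 9.81 to 38.8 RNA reads per tag, and activity from -0.92 to 1.90. They were both alleles of rs10516826 in window R, F, both of rs7674369 in window C, RC, and the T allele of rs2972021 in window R, RC. With SV40 the numbers were 17 and 6. Among all elements with the input shortage, 4.70% reached 4-fold with minP and 6.25% with SV40.

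The leading windows were compared with the opposite orientation. Each was picked for the highest activity of its variant. A positive sum of the RNA and input gaps, averaged over the promoters, thus follows from the choice. As the mean of the alleles on the log2 scale, each leading window had less input and more RNA than the opposite orientation of the same window, with each promoter. The RNA gap was as small as 1.04-fold for rs6814344 with minP, and by single alleles it turned there for G of rs6814344 (56.9 against 67.0 RNA reads per tag) and for T of rs2972021 (79.5 against 92.0). The input gap was the larger in 5 of 6 windows with minP, the exception being rs2924941, and in 4 of 6 with SV40, where rs7674369 joined it. For rs10516826 with minP the gaps were nearly equal, 2.83 in input and 2.82 in RNA. None of the leading windows was above the average tag in the opposite orientation, where mean activity over alleles and promoters ran from -2.22 for rs10516826 to -0.56 for rs2972021. The orientations are separate oligonucleotides, and whether a window letter marks the same stretch in both was not analysed here.

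Differences between the alleles of the members' constructs were counted beside those of all constructs. With at least 10 tags for each allele, 1 of 33 constructs had a 2-fold allelic difference with minP, beside 7.41% of all 3469, and 3 of 34 with SV40, beside 10.3% of all 3439. The median size was 0.35 and 0.42 on the log2 scale, against 0.33 and 0.37 over all constructs. Differences of at least 2 SE were found in 2 constructs with minP and in 4 with SV40, or 6.06% and 11.8%, beside 7.41% and 7.62% of all constructs. The C allele of rs10516826 in window R, RC, was above T with both promoters, with T minus C at -1.44 ± 0.32 with minP and -1.17 ± 0.46 with SV40. For that variant in window L, RC, T minus C was -0.65 ± 0.24 with SV40 and 0.56 ± 0.34 with minP, opposite in sign. For rs6814344 in window L, RC, G minus A was -2.10 ± 0.85 with SV40. For rs10030965 in window R, RC, C minus A was -1.04 ± 0.66 with SV40 and 0.068 ± 0.48 with minP. There 2 of the 17 C tags with SV40 had 0 RNA reads. Without tags at 0 RNA reads the SV40 activities were 3.69 (C) and 3.93 (A), and with summed counts 3.32 and 3.31, so this difference depended on the averaging. For rs7674369 in window L, F, G minus A was 0.57 ± 0.18 with minP and 0.72 ± 0.22 with SV40. In the leading windows the difference was under 2-fold in all 6 with minP and in 5 of 6 with SV40. The variants were chosen by single high elements and these windows by the mean over both alleles and promoters, so their differences are a description.

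Only rs10030965 and rs2924941 had another variant within 200 positions, rs10028596 at 141 and rs3017899 at 200, and whether their oligonucleotides share sequence with the members was not analysed here. The 12 elements of rs10028596 lay between -1.29 and 0.59 with minP and between -1.14 and 0.86 with SV40. Those of rs3017899 lay between -0.53 and 1.04 with minP and between -0.14 and 1.45 with SV40, so none reached 4-fold with either promoter. For rs10028596 in window R, RC, input was also low, at 42.0 (C) and 55.4 (T) reads per tag with minP, with 13.2 and 8.77 RNA reads. For the other 4 members the nearest variant lay 231 to 916 positions away.

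The activities of the highest elements showed no gap between places 10 and 11. With minP the element in place 10, the A allele of rs7674369 in window R, RC, had an activity of 3.76, and the next, of rs2869974, had 3.75. With SV40 the G allele of rs2972021 in window L, RC, stood in place 10 with 3.79 and the T allele of rs2924941 in window L, F, followed with 3.78. Both variants in place 11 already had elements among the 10 highest with minP, so neither would have added a variant. With SV40 the first variant without such an element was rs11725153, in place 13 with 3.75. The median SE of the members' activities was 0.26 with minP and 0.31 with SV40, so the order among these elements is not resolved by the spread over tags.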

How the data were processed

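One deposited table was used. It held raw read counts per tag, as the authors deposited them, for 4 libraries sequenced with single reads of 36 nt, per the labels. The steps from reads to tag counts, and any filter or removal of duplicates, are not given in the sources used here. No molecular identifiers are stated, so reads are not independent molecules.

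Python 3.11.15, numpy 2.4.6 and pandas 2.3.3 were used. A pseudocount of 1 read was added, tags needed 10 input reads and elements 10 passing tags. In an element with scarce input the passing tags are its better represented ones. RNA and input parts were each taken against the average passing tag of their library. No test was run, because each group had 1 library and the ratio chose the members. The 4-fold and 2-fold limits are descriptive. The calculation was tested on simulated data. Members and lists were chosen with earlier results of these data known. Windows were named by the highest mean activity over both alleles and promoters, neighbours within 200 positions. The alternatives tried were the input minimum, pseudocount, tag averages and tag subsets, tags per element, marked oligonucleotides and the neighbour distance.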

Additional observations from a re-analysis of the deposited data

How the results depend on the processing

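All 24 activities of the leading elements stayed above 4-fold in each alternative that gave a value, from 2.29 to 5.05 on the log2 scale, and 77 of 210 alternative values moved by more than 1 SE over tags. With an input minimum of 50 reads no leading element kept 10 tags, and 0 members were past 4-fold with either promoter; the scarce input of these elements leaves too few tags by construction. In the other alternatives 11 to 22 members were past 4-fold with minP and 14 to 23 with SV40. How many of these had the RNA part above the input part depended on the averaging. With minP the number fell from 6 to 2 with an input minimum of 1, to 1 without tags at 0 RNA reads, to 3 with medians, and to 0 with summed counts, with summed counts over all listed tags (chosen after seeing the data) and with an input minimum of 50. With SV40 it fell from 11 to 7, 4, 5, 0, 0 and 0 in the same alternatives. The number of members with a 2-fold allelic difference rose from 1 to 3 with minP with an input minimum of 1, with medians and with summed counts over all tags, and to 2 with a minimum of 50, without tags at 0 RNA reads and with tags passing in both pools. With SV40 it went from 3 to 5 with a minimum of 1 and to 1 with summed counts, summed counts over all tags and tags passing in both pools. Within 100 positions there were 0 neighbouring variants in place of 2. No paired analysis was possible because each group had 1 library and no result comes from a test. The number of leading windows whose input gap to the opposite orientation exceeded the RNA gap was 4 or 5 of 6 in every alternative that gave all 6, with each promoter. In the leading windows depth was low in input, with a median of 26 reads per passing tag with minP and 27 with SV40, while other members were low in RNA.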
